A study of Danio rerio with 6 samples.

Results

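The genes rassf6 and si:busm1-57f23.1 follow each other in zebrafish gene order among the genes listed here, and both were far lower in retinas of thrb-/- fish than in wild-type retinas. They are 2 of the 9211 genes in the authors' deposited table. They were chosen by name as neighbouring genes, with their fold changes and standard errors already known. Their own values are therefore given as a description, and no new test was made of them. The thrb-/- fish were homozygous for the stl628 allele of thrb, the gene for thyroid hormone receptor beta, and the wild-type fish came from matched clutches. All were on the AB* background and 6 months old. Each genotype had 3 samples, and a sample pooled 2 retinas of a male with 2 of a female. RNA was selected for poly-A tails. The mutation is present from the start of life, so a role of the receptor in the adult retina cannot be told apart from one in development.

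The protein of rassf6 belongs to the Ras association domain family (RASSF). In mammals such proteins carry a domain that binds Ras-type GTPases. Part of the family, RASSF6 included, has a second, SARAH, domain that pairs with the Hippo kinases. The Hippo kinases restrain the coactivator Yap, and mammalian RASSF6 is known for promoting apoptosis. The gene si:busm1-57f23.1 carries a clone name. RefSeq lists it as protein-coding with "cystatin" among its synonyms, and cystatins are a family of inhibitors of cysteine proteases such as cathepsins. Thyroid hormone receptor beta is a nuclear receptor that red cones need for their identity in zebrafish.

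The labels were checked first on the mutated gene and the red cone opsins. In the authors' deposited table thrb averaged 413 normalized counts in thrb-/- retinas and 3301 in wild-type retinas. The red opsins opn1lw1 and opn1lw2 averaged 177 and 61.1 in thrb-/- retinas, against 51643 and 41322 in wild-type retinas, in the authors' deposited table. A normalized count is a read count divided by a size factor for the library. The table holds 1 mean per genotype and no value per sample, so neither the spread of single samples nor any overlap of the groups can be shown. Library depth is unknown for the same reason. The errors below are those that the authors' deposited table gives for the log2 fold change. Nothing in the labels says that the fish of a group came from separate clutches or dissections, so these errors cover only the spread between the 3 pools of a genotype as the authors' model estimated it.

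rassf6 had few reads in the mutants. In the authors' deposited table it averaged 13.2 normalized counts in thrb-/- retinas and 166 in wild-type retinas. Every listed gene has a mean of at least 50.0 in one of the genotypes, and rassf6 met that level through the wild-type retinas alone. The mutant mean was 7.92% of the wild-type mean, 12.6-fold lower. As log2 fold change of thrb-/- over wild-type the authors' deposited table gives -3.69 (SE 0.78), with a 95% interval of -5.22 to -2.16. That interval spans 2.68% to 22.4% of the wild-type level.

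si:busm1-57f23.1 had a high mean count in wild-type retinas. The authors' deposited table gives 302 normalized counts in thrb-/- retinas and 3318 in wild-type retinas as means. The mutant mean was 9.09% of the wild-type mean, 11.0-fold lower, so the transcript was lower but still counted in the mutants. As log2 fold change the authors' deposited table gives -3.46 (SE 0.51), with a 95% interval of -4.47 to -2.45, or 4.51% to 18.3% of the wild-type level. With a t distribution of 4 degrees of freedom in place of the normal distribution, the intervals widened to -4.89 to -2.03 for si:busm1-57f23.1 and to -5.86 to -1.52 for rassf6. In whole retina, fewer cells that express a gene and less RNA per cell cannot be told apart.

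**Figure D1:**
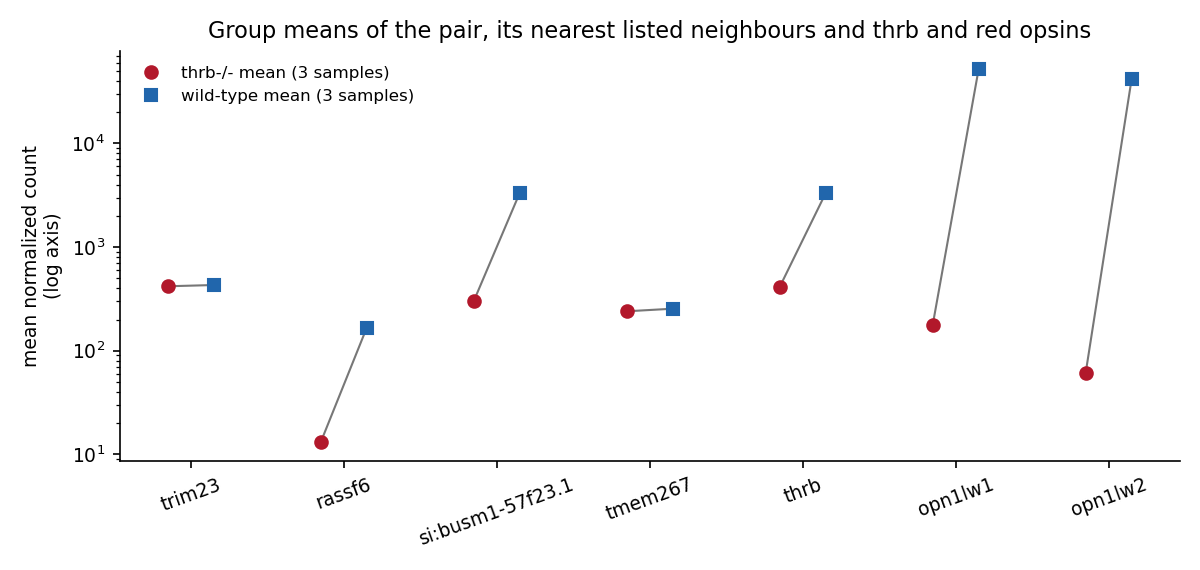
Mean normalized counts (log axis) in thrb-/- retinas (circles) and wild-type retinas (squares), 3 pooled samples per genotype, for the pair, the nearest listed gene to each side (trim23 and tmem267), thrb and both red opsins. No error is drawn because the table holds only group means. rassf6 lies at 13.2 in thrb-/- against 166 in wild-type retinas and si:busm1-57f23.1 at 302 against 3318, while trim23 and tmem267 have nearly level lines.

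By point estimate both genes were reduced by a like proportion. The log2 fold change of rassf6 minus that of si:busm1-57f23.1 was -0.23 (SE 0.94, 95% interval -2.06 to 1.61). That standard error takes the estimates as independent, although they come from the same 6 samples. The interval holds changes of rassf6 up to 4.18-fold stronger and up to 3.05-fold weaker than that of si:busm1-57f23.1. Levels cannot be compared between the genes, since normalized counts are not corrected for transcript length.

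By point estimate rassf6 ranked 4 and si:busm1-57f23.1 ranked 5 among the lowest fold changes of all 9211 genes. They followed opn1lw2, opn1lw1 and mir726, a microRNA gene, and preceded thrb. Measured by the absolute difference in deposited log2 fold change, the gene nearest to each was the other, at 0.23. After it came thrb, given in the authors' deposited table with -3.01 (SE 0.13), which differed by 0.68 from rassf6 and by 0.46 from si:busm1-57f23.1. Next was mhc1uba, a class I major histocompatibility complex gene, for which the authors' deposited table gives -2.94 (SE 0.23). The fold change of rassf6 minus that of thrb was -0.68 (SE 0.79), and that of si:busm1-57f23.1 minus thrb was -0.46 (SE 0.53), so the order of these genes lies within their errors. The red opsins lay apart. For opn1lw1, the nearer of them, the authors' deposited table gives -8.19 (SE 0.40). The fold change of rassf6 minus that of opn1lw1 was 4.50 (SE 0.88), and that of si:busm1-57f23.1 minus opn1lw1 was 4.73 (SE 0.65), on the log2 scale. Only 7 genes of the table had a 95% interval wholly below -2. They were both members of the pair, thrb, mhc1uba, mir726 and both red opsins. The pair was chosen with these values known, so its ranks and its place among the 7 restate that choice. With the wider intervals of the t distribution (4 degrees of freedom), that of rassf6 ended at -1.52 and that of si:busm1-57f23.1 at -2.03. The authors' deposited test for a change beyond 2-fold gives rassf6 an adjusted p of 0.50, so it did not pass there. For si:busm1-57f23.1 the same deposited test gives an adjusted p of 0.0027.

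The pair also stood out by how loosely its fold changes were determined. Its standard errors were known when it was chosen, so this is a description of that choice. For si:busm1-57f23.1 the authors' deposited table gives a standard error of 0.51, which was 5.07 times the median of 0.10 among the 1808 other genes whose mean count lay within 2-fold of its own, and 3 of these had a larger one. The 3 were tax1bp1b, fkbp5, a stress-hormone-responsive chaperone partner, and nfil3-2. By the authors' deposited table their standard errors were 0.97, 0.61 and 0.56. None of them passed the test described below, which divides by that standard error and so seldom calls such genes. Among them, fkbp5 averaged 3953 in thrb-/- and 2582 in wild-type retinas in the authors' deposited table. The genes nearest in mean count, rtf1, ctsd and hsd11b2, stood at 0.093, 0.092 and 0.14 by the authors' deposited table.

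The standard error of rassf6 was 3.54 times the median of 0.22 among 2716 genes of like mean, of which 14 had a larger one. The largest were those of zgc:198329, myom1a, a muscle M-band gene, and zgc:194221, at 2.86, 1.53 and 1.35 in the authors' deposited table. The nearest genes in mean count, si:dkey-119m17.2, rrp9 and shq1, had 0.22, 0.22 and 0.23 in the authors' deposited table. All these genes were matched to rassf6 on the mean over all 6 samples, so they need not share its low mutant mean of 13.2. Counting alone, under the simple model given below, already sets a standard error of 0.24 for rassf6, above the median of 0.22. Across the table, 105 genes (1.14%) had a standard error at least 3 times the median of genes of like mean, a limit set after the values were seen. Of the 103 genes among them other than the pair, 1 passed the test described below, opn1lw1, against 2.08% of the table. That test divides by the standard error, so few such genes could pass, and the count says nothing about the pair.

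**Figure D2:**
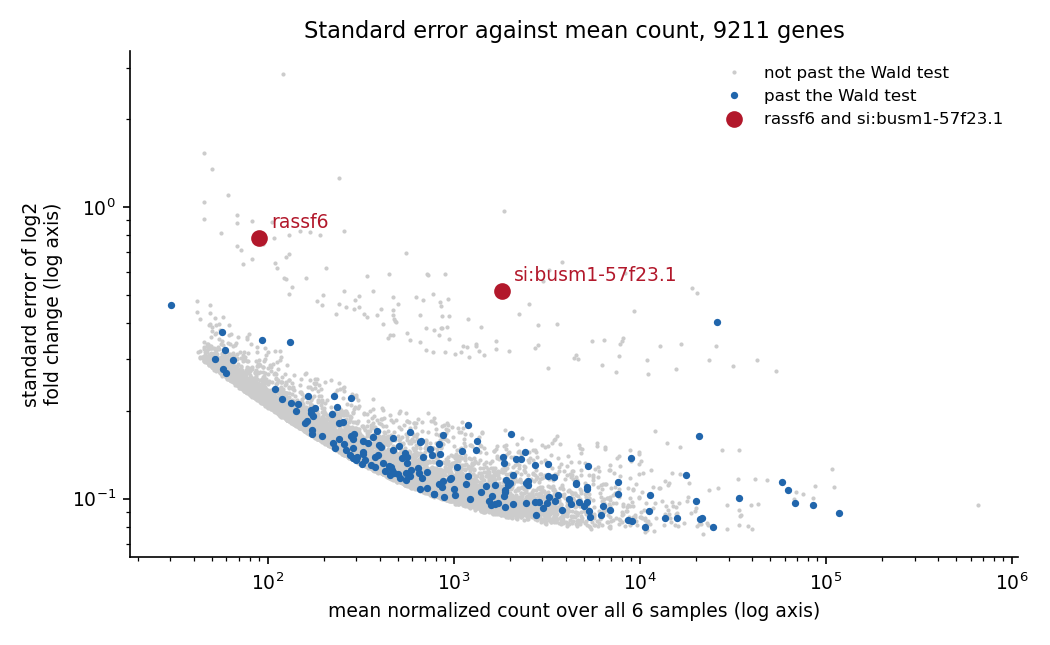
Standard error of the log2 fold change against the mean normalized count over all 6 samples for 9211 genes (log axes), with genes past the Wald test in blue, the others in grey and the pair in red. Both members lie well above the main band, rassf6 at 0.78 and si:busm1-57f23.1 at 0.51; the blue point near them at the right is opn1lw1 at 0.40.

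These standard errors were larger than counting alone gives under a simple model. If the means are read as counts of single libraries with size factors of 1, counting alone gives a standard error of 0.24 for rassf6 and 0.050 for si:busm1-57f23.1. The values in the authors' deposited table are 3.28 and 10.3 times as large. Among genes of like mean the median was 1.86 times for rassf6 and 3.45 times for si:busm1-57f23.1, against 2.24 times over all genes. What exceeds counting in the pair corresponds to a coefficient of variation between samples of one genotype of about 63.2% for rassf6 and 43.5% for si:busm1-57f23.1. The medians of genes of like mean were 15.8% for rassf6 and 8.18% for si:busm1-57f23.1. For comparison, the same calculation gave 33.9% for opn1lw1, 10.6% for thrb, and a median of 10.9% with a 95th percentile of 20.2% over all genes. The calculation assigns both genotypes 1 common variation, so it does not show in which genotype or sample the pair varied. The reads per sample were not analysed here.

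The position of the pair was taken from the gene order of RefSeq's GRCz12tu assembly, because the authors' files use danRer10, and no coordinates are given for that reason. In that order 1 gene, the unlisted LOC137496567, starts between them. It overlaps the span of rassf6, and the spans of rassf6 and si:busm1-57f23.1 do not overlap. The span of rassf6 overlaps that of musk, a receptor kinase gene of the neuromuscular junction, which is also not among the listed genes. No strand-marking step appears in the labels' protocol, so reads from such an overlap cannot be assigned with certainty. Whether LOC137496567 and musk were among the genes counted is not known, since the annotation used for counting is not given.

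Neither of the nearest listed neighbours shared a change of this size. On the side of rassf6, trim23, a ubiquitin ligase gene, averaged 418 normalized counts in thrb-/- and 430 in wild-type retinas in the authors' deposited table (-0.038 as log2 fold change, SE 0.14). On the side of si:busm1-57f23.1, tmem267, listed as si:busm1-79m10.4, averaged 240 in thrb-/- and 254 in wild-type retinas in the authors' deposited table (-0.089, SE 0.16). Both were level between the genotypes within these errors.

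Neighbours were tested with a Wald test, which sets the deposited log2 fold change over its standard error against the normal distribution. It is two-sided, and p-values were adjusted by Benjamini and Hochberg's method over all 9211 genes. At an adjusted p under 0.05 this test called 192 genes of the table, which is 2.08%. Among the 20 neighbours, 10 to each side, it called 0, with adjusted p from 0.84 to 0.999. At an unadjusted p under 0.05 it also found 0 of the 20, against 8.29% of the table, and the authors' deposited test for a change beyond 2-fold called 0, against 0.076% of the table. With a background of 2.08%, a count of 0 among 20 genes is near what the table as a whole shows. Their intervals say more: all 20 included 0, and none reached below -0.51 or above 0.68, a range that leaves out any 2-fold change.

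Beyond trim23 the next listed genes were ppwd1 and cwc27, genes of spliceosome proteins. For these the authors' deposited table gives log2 fold changes of 0.16 (SE 0.13) and 0.12 (SE 0.18). They were followed by srek1ip1 at 0.31 (SE 0.19) and cops4, a subunit of the COP9 signalosome, at 0.060 (SE 0.11) in the authors' deposited table. After tmem267 the next listed gene was cntfr, the receptor for ciliary neurotrophic factor, at 0.12 (SE 0.14) in the authors' deposited table. The unlisted il11ra directly follows tmem267 in gene order. Further on lay hdhd2 at 0.26 (SE 0.21) and ier3ip1 at -0.076 (SE 0.13) in the authors' deposited table. Over the 20 neighbours, log2 fold changes ran from -0.096 to 0.31 with a median of -0.036, against a median of 0.00063 over all genes. Within 20 listed genes to each side, 2 of 40 passed. These were ambp, which encodes the precursor of alpha-1-microglobulin and bikunin, 12 listed genes before rassf6, and rasgef1bb, a Ras exchange factor gene, 20 before it. The authors' deposited table gives ambp a mean of 224 in thrb-/- and 567 in wild-type retinas (log2 fold change -1.34, SE 0.15, Wald test adjusted p = 1.23e-15). In the authors' deposited table rasgef1bb averaged 465 in thrb-/- and 641 in wild-type retinas (-0.46, SE 0.12, Wald test adjusted p = 0.0056). On the chromosome of the pair 6 of 322 other listed genes passed, 3 lower and 3 higher. That is 1.86%, close to the 2.08% of the table. With a t distribution (4 degrees of freedom) as its yardstick the Wald test called 1 gene of the table, and neither ambp nor rasgef1bb passed, nor did any cell marker named below.

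**Figure D3:**
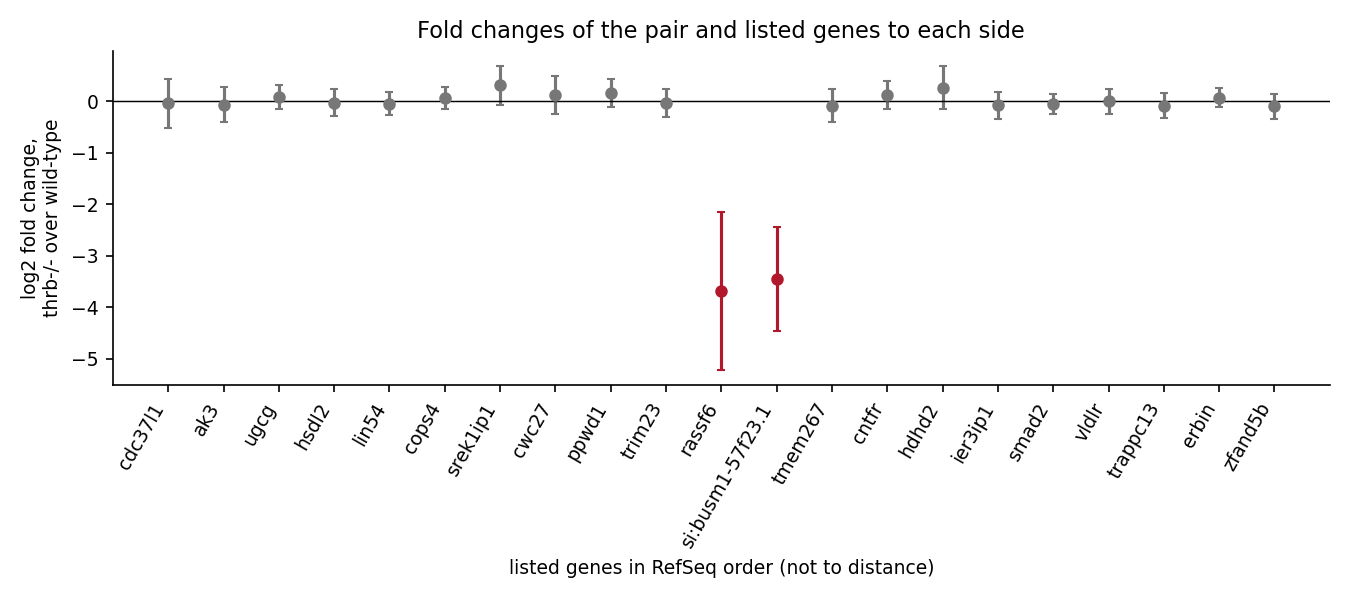
Log2 fold change of thrb-/- over wild-type retinas with 95% intervals (1.96 standard errors) for rassf6 and si:busm1-57f23.1 (red) and the 10 listed genes to each side (grey), in RefSeq gene order and not to distance; 1 of the 20 is not drawn. The pair lies at -3.69 and -3.46, while the 20 neighbours lie between -0.096 and 0.31 and every one of their intervals includes 0.

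Few other RASSF genes were listed, and their fold changes were far smaller than that of rassf6. Of 13 further family members looked for, 3 were listed, and 0 of 3 passed in either direction, against 2.08% of the table. So few genes say nothing by their count. rassf1, which like rassf6 has a SARAH domain in mammals, averaged 2511 in thrb-/- and 2909 in wild-type retinas in the authors' deposited table (-0.21 as log2 fold change, SE 0.11, Wald test adjusted p = 0.67). Its relative rassf2a averaged 102 in thrb-/- and 125 in wild-type retinas in the authors' deposited table (-0.28, SE 0.22). rassf8b, of the branch without a SARAH domain, averaged 357 in thrb-/- and 308 in wild-type retinas in the authors' deposited table (0.21, SE 0.13). The median of the 3 was -0.21, and their intervals reached no lower than -0.71. The count at an unadjusted p under 0.05 was also 0, as was that of the authors' deposited test.

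No listed gene passed in the Hippo pathway, in which RASSF proteins act, or among Ras and apoptosis partners. Of 55 genes looked for, 30 were listed, and 0 passed in either direction, against 2.08% of the table. The 30 hold 10 of 20 core genes, 4 of 13 effectors, 2 of 8 targets and 14 Ras and apoptosis partners. The rest of the pathway was not seen here. The unadjusted p was under 0.05 for 2 of the 30, against 8.29% of the table, and the authors' deposited test called 0, against 0.076%. These counts, and the 0 of 30 above, are near the shares of the table, so the counts say little about the pathway. The median log2 fold change was -0.011. Among 10 core genes, mob1bb and stk3 had the highest mean counts. The first is a kinase activator of the Hippo cascade, and stk3 is a Hippo kinase that pairs with RASSF proteins in mammals. In the authors' deposited table stk3 averaged 651 in thrb-/- and 757 in wild-type retinas (log2 fold change -0.22, SE 0.12), and mob1bb averaged 690 in thrb-/- and 642 in wild-type retinas (0.11, SE 0.12).

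Among 4 listed effectors, the coactivator gene yap1 averaged 393 in thrb-/- and 307 in wild-type retinas in the authors' deposited table (0.36 as log2 fold change, SE 0.14, Wald test adjusted p = 0.25). amotl2a, an angiomotin-like binding partner of Yap, averaged 227 in thrb-/- and 279 in wild-type retinas in the authors' deposited table (-0.29, SE 0.16). Of the target genes 2 were listed, both under older symbols. ctgfa, now ccn2a, averaged 86.0 in thrb-/- and 150 in wild-type retinas in the authors' deposited table (-0.80, SE 0.25, Wald test adjusted p = 0.061). Its paralog ctgfb, now ccn2b, averaged 62.6 in thrb-/- and 62.5 in wild-type retinas in the authors' deposited table (-0.0040, SE 0.34).

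All 14 Ras and apoptosis partners were listed, with log2 fold changes from -0.39 to 0.29 and a median of 0.010. Those with the highest mean counts were mdm4 at -0.092 (SE 0.099), and kras at 0.077 (SE 0.10) in the authors' deposited table. For mdm2, a ubiquitin ligase gene, the authors' deposited table gives 0.089 (SE 0.12).

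**Figure D4:**
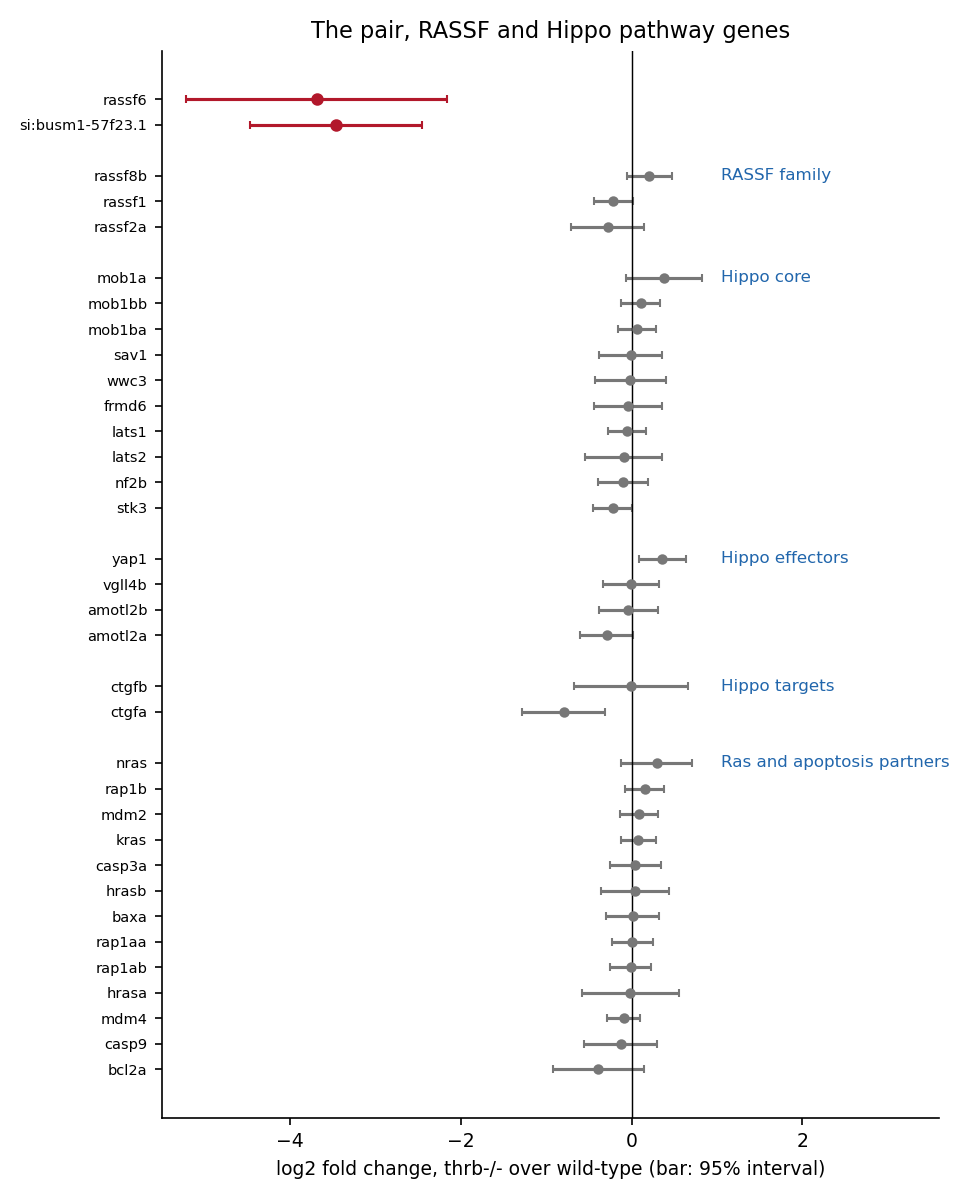
Log2 fold change of thrb-/- over wild-type retinas with 95% intervals (1.96 standard errors) for the pair (red) and the listed RASSF, Hippo, Ras and apoptosis genes (grey), of which 1 is not drawn. None of the grey points passed the Wald test; the lowest is ctgfa at -0.80, and the intervals of the pair do not reach that far up.

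Besides the red cone genes above, the fixed markers of pigment epithelium and 1 cone marker differed between the genotypes. The marker counts stand against the 2.08% of the table that passed the test. All 4 fixed markers of pigment epithelium, rpe65a, dct, pmela and tyrp1b, were lower, with log2 fold changes from -1.16 to -0.88 and Wald test adjusted p of at most 1.14e-05. Their means in the authors' deposited table sum to 1535 in thrb-/- and 3191 in wild-type retinas. In the same table the rod markers rho, gnat1 and saga sum to 841011 in thrb-/- and 709522 in wild-type retinas, and 0 of 3 passed. Of 6 listed cone markers 1 passed, gngt2a, a cone transducin subunit, at -0.91 (SE 0.14) in the authors' deposited table. None of the 8 listed markers of Müller glia, bipolar cells, lens, blood and leukocytes passed, taken over 2, 2, 1, 1 and 2 genes, and both muscle markers were not among the listed genes. Nor were cryaa and crygm2d1 of lens, hbba1 of blood and ptprc of leukocytes. The part of pigment epithelium and red cones in the values of the pair was not tested.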

How the data were processed

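Per the submitters' processing notes, reads were handled with STAR 2.7.2b, cutadapt 1.9.1, DESeq2 1.18.1 (R 3.4.3) and HTSeq 0.9.1 on build danRer10. Settings and annotation: not given in the sources used here. What the authors deposited is 1 table with a mean normalized count per genotype (a signal, counts over size factors), a log2 fold change with its standard error, a statistic (a score, the excess over 2-fold divided by the standard error), and p-values of that test. Reads per sample were not analysed here, so the count test that other data would need was replaced by a Wald test on the deposited values. The 95% intervals are 1.96 standard errors to each side. Gene order and synonyms came from RefSeq (GRCz12tu), which placed 9113 of 9211 genes; 10 names turned into dates stayed unassigned. The members, lists and tests were chosen with earlier results of these data known. Named genes were the pair, 5 listed neighbours to each side and any past the test within a wider window. Every listed RASSF gene was named, and up to 4 past the test or else the 2 of highest mean count in each pathway list. The 3 genes nearest in fold change, nearest in mean and largest in standard error were named too. mdm2 and the cell markers were named beside these for their known roles. Single values of 2 genes are not reported here. Protein likeness was not used here. The code of the test was run on simulated fold changes, drawn from a normal distribution with the deposited standard errors. Such a run cannot show how the test fares with errors estimated from 3 samples per genotype. Work was done in Python 3.11.15 with scipy 1.17.1 and pandas 2.3.3.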

Additional observations from a re-analysis of the deposited data

How the results depend on the processing

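For the pair, the alternatives were the ratio of group means, a pseudocount of 1, or the median of all genes subtracted. The log2 fold change of rassf6 ran from -3.69 to -3.56, and that of si:busm1-57f23.1 stayed at -3.46. These alternatives use the same deposited means and fold changes. Neither a change of direction nor a move beyond 1 standard error was likely under them, so they are no test of the pair. The counts of 0 for the RASSF genes, the pathway genes and the 20 neighbours were also 0 against a t distribution, with adjustment over 13700 genes (the number that the deposited adjusted p-values imply), among genes with a mean of at least 100, and by the authors' deposited test. The t distribution, the larger adjustment and the authors' deposited test are each stricter than the main test. A count of 0 could not rise under them, only under the filter on the mean. With 20 listed genes to each side the neighbour count was 2, and with 5 it was 0; the wider window holds more genes. Over the table, 192 genes passed; the count was 1 when the t distribution (4 degrees of freedom) was used and 7 by the authors' deposited test, which asks for more than 2-fold. It was 166 with adjustment over 13700 genes and 194 with the filter. Of 110 genes that were neighbours, on a fixed list or chosen for likeness to the pair, 11 passed, against 2.08% of the table. The 11 include the red cone and pigment epithelium markers and mhc1uba, picked for its fold change, so their number reflects how genes were chosen. Of the 11, 10 lost the call against the t distribution and 7 by the authors' deposited test. No paired analysis was possible because the table holds 1 mean per genotype and no value per sample; for the same reason no replicate could be left out. Few reads limit rassf6 in the mutants, whose mean is 13.2.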

Other observations

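Neighbouring genes that were both far lower in the mutants were few. Of 9088 pairs of listed genes that follow each other in RefSeq's gene order, 3 had a log2 fold change below -1 in both. One was rassf6 with si:busm1-57f23.1, and the others were mir726 with opn1lw1 and opn1lw1 with opn1lw2, which together form the red opsin locus. The pair was chosen as neighbours with known fold changes, so its place among the 3 restates that choice. In all, 32 genes lay below -1. The mean left in the mutants was 7.92% of the wild-type mean for rassf6 and 9.09% for si:busm1-57f23.1.

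As RefSeq gives si:busm1-57f23.1 the synonym cystatin, listed cystatins and cathepsins were looked up after the data were seen, and are described without a test. cst3, the cystatin C gene, averaged 4417 normalized counts in thrb-/- and 5955 in wild-type retinas in the authors' deposited table (-0.43 as log2 fold change, SE 0.11, 95% interval -0.64 to -0.22). cst14b.1 averaged 101 in thrb-/- and 81.6 in wild-type retinas in the authors' deposited table (0.31, SE 0.21, 95% interval -0.11 to 0.73). Among 8 listed cathepsin genes the log2 fold changes ran from -0.16 to 0.037 with a median of -0.056, and all 8 intervals of 95% included 0. The cathepsins were taken by gene name whatever their protease class, so not all need be targets of cystatins. The cathepsin gene of highest mean count, ctsf, averaged 11574 in thrb-/- and 12925 in wild-type retinas in the authors' deposited table (-0.16, SE 0.086).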
